A study of Rattus norvegicus with 6 samples.

Results

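The genes described here are 43 genes of DNA replication and mitosis in cultured rat ovaries, 13 that act in replication or entry into S phase and 30 that act in mitosis. The list is one of symbols, by function and with no threshold on a measured value, and was drawn up with earlier results of these data known. Its genes stand beside 14217 genes that have a probe set of their own. Of the 43, 40 had such a probe set, and all 40 passed the filter on dim signals. Rrm2, Nek2 and Tpx2 had no probe set under that symbol and are not described. None of the 40 differed between NT3-treated and control ovaries by the test across all probe sets. For most of them the data were tight on the probe set used, the brightest of the gene. There the 95% interval of the fold change lay within 1.5-fold in either direction for 36 of 40, against 72.3% of all genes tested. Of 10 members with more than 1 tested probe set, 5 had log2 fold changes of differing sign. Troap had the largest log2 fold change in size, with a lower signal in all 3 NT3 samples. It also did not pass, and it was dim enough in NT3 to clear the filter only through its control signals.

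Ovaries of 4-day-old female Sprague-Dawley rats were cultured whole for 48 h on floating filters, either with no factor (control, 3 arrays) or with 50 ng/ml of recombinant human NT3 (3 arrays). NT3, encoded by Ntf3, is a neurotrophin, and the series title concerns the primordial to primary follicle transition. Each array was hybridised with RNA from 2 to 3 ovaries homogenised together. The labels call the replicates biological but name no separate animals or litters. The p-values therefore reflect the spread of these 6 samples alone, which may be technical.

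A cell that divides first licenses its replication origins by loading the MCM helicase, copies its DNA behind the sliding clamp PCNA, and then enters mitosis when cyclin B activates CDK1. Transcripts of the replication machinery peak around S phase and those of the mitotic machinery in G2 and mitosis, so both are widely read as marks of proliferating cells. In the ovary at this age the dividing cells are somatic, among them granulosa, stromal and surface cells. The oocyte does not divide but is arrested in meiotic prophase, and it is known to store some of the same transcripts, cyclin B among them. In whole-ovary RNA a lower number of cells of a type and less RNA per cell cannot be told apart.

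The 2 sets of members differ in their promoters, a property not used to choose them. E2F factors bind the promoters of many replication genes, while the DREAM and MMB complexes act on mitotic genes through a short element, the cell cycle homology region (CHR), often near a CCAAT box bound by NF-Y. RefSeq promoters of the GRCr8 assembly, from 250 bases before to 50 after the start, were matched for 34 of the 43 members. They were searched on both strands for E2F sites (spelled TTCCCGC, or as a variant TTGGCGC, or else as TTCGCGC, or finally as TTGCCGC; matches may overlap each other), the CHR (TTTGAA, or in its variant form TTTAAA, which can also lie in a TATA-like element) and CCAAT. An E2F match was present in 8 of 10 replication promoters (80%) and 7 of 24 mitosis promoters (29.2%), against 10% of all 27457 promoters of the same length. A CHR match was present in 21 of 24 mitosis promoters (87.5%) and 2 of 10 replication promoters (20%), against 27.9% of all. CCAAT was present in 87.5% of the mitosis and 70% of the replication promoters, against 37.7% of all. TTTGAA and CCAAT stood together in 15 of the 24 mitosis promoters (62.5%), in 0 of 10 replication promoters and in 7.25% of all.

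Genes of the same processes outside the membership divided the same way in E2F and CHR matches. Among other replication genes 28 of 44 promoters (63.6%) held an E2F match and 8 (18.2%) a CHR match, and among other mitosis genes 12 of 63 (19.0%) held an E2F match and 45 (71.4%) a CHR match. CCAAT was less frequent than in the members, in 43.2% of the other replication and 60.3% of the other mitosis promoters, against 37.7% of all. TTTGAA and CCAAT stood together in 38.1% of the other mitosis and 6.82% of the other replication promoters, against 7.25% of all. These matches describe letters in a window and not binding.

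**Figure D1:**
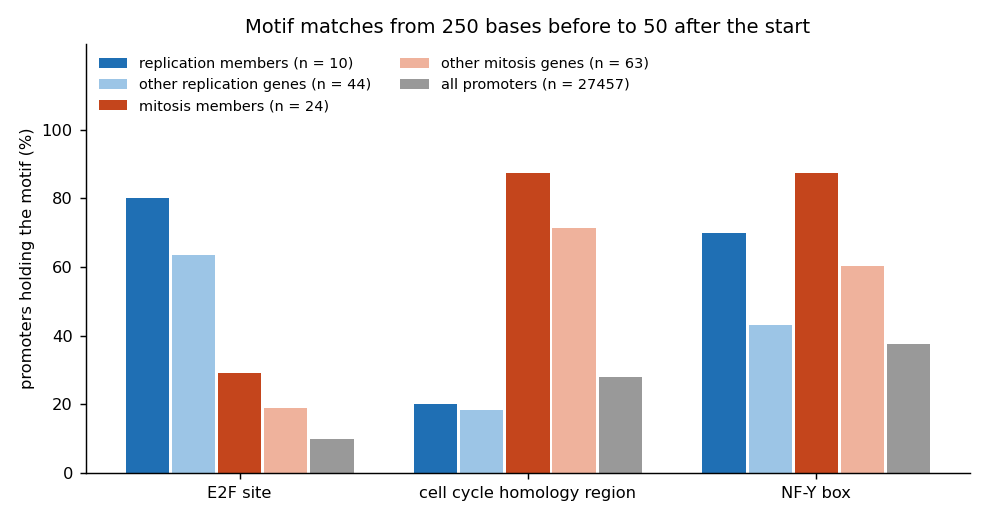
Share of promoters, in percent, that hold at least 1 match to each motif on either strand, for the members (dark bars), other genes of the same processes (light bars) and all promoters (grey). E2F matches stand at 80% in replication members against 29.2% in mitosis members, and CHR matches at 20% against 87.5%.

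The stretches below show these elements in members with the lowest p-values that have them upstream of the start, and in Mcm6, added because it had the most E2F matches of the replication members (5, of which 4 lie in the stretch). Plk1 and the E2F match of Kif23 were passed over because a match lay past the start. For each gene the start was that of its first listed promoter. The stretches of Mcm2, Troap and Kif23 lie inside the listed span of the gene, and the second of Cdk1 does so in part. Matches are in capitals, with E2F sites in the first 4 and TTTGAA and CCAAT (or their reverse complements) in the last 3. Each stretch runs 5′ to 3′ on the gene's strand.
Mcm6, minus strand, chr13:42404403-42404505: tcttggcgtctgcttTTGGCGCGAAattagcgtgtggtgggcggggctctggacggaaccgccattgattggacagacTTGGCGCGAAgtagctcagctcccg
Mcm2, minus strand, chr4:122918095-122918119: cgtgacccggttTTCGCGCGAAaac
Cdk1, plus strand, chr20:19265146-19265182: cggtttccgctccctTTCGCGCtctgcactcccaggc
Troap, plus strand, chr7:132113419-132113455: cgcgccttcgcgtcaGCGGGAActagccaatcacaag
Cdk1, plus strand, chr20:19265229-19265292: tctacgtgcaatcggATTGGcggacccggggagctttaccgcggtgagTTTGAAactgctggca
Cdc20, minus strand, chr5:137255821-137255865: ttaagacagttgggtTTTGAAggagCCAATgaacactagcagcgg
Kif23, minus strand, chr8:71320643-71320687: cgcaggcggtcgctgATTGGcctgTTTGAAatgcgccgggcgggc
Cdk1 carries an E2F match 132 bases before its start and the CCAAT and TTTGAA pair at 49 and 16 bases. In Mcm6 and Mcm2 overlapping matches on opposite strands form each run of capitals.

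The arrays shared 1 scale, with a trimmed mean signal of 210.1 on each and medians from 69.1 to 75. Control replicate 2 stood apart in RNA quality: its 3′ to 5′ signal ratio was 6.83 for beta-actin and 1.70 for Gapdh, against 2.42 to 2.91 and 1.09 to 1.25 on the other arrays. Without it, both control ratios were still below all 3 NT3 ratios. Markers of the labelled tissue were measured. Of those with a probe set, 6 of 6 oocyte, 9 of 9 granulosa and 9 of 9 stromal markers lay above the filter. As 10600 of 14217 genes passed that filter, passing it does not by itself single out a tissue. Of the 5 theca and steroidogenic markers, 3 lay above it, with mean signals of 597 for Hsd3b1, 82.8 for Star and 42.8 for Lhcgr. The other 2, Cyp11a1 and Cyp17a1, lay below it. Of the marker lists, the 9 stromal genes all had positive log2 fold changes, with a median of 0.14. The 6 endothelial genes and the 2 tested red cell genes all had negative ones, with medians of -0.096 and -0.18. Of the 9 macrophage and leukocyte genes 7 were positive and 2 negative, with a median of 0.13. Of the 8 surface and oviduct epithelium genes 4 were positive and 4 negative, with a median of 0.080. Among these 8, Cldn3 had the largest, 0.92, with groups that did not overlap and an unadjusted limma p of 0.00372. No marker passed the test at the adjusted threshold. The part of these shifts in the values of dividing cells was not tested.

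The limma test called 0 of 18625 probe sets (0%) at an adjusted p under 0.05, while 240 (1.29%) had an unadjusted p under 0.05. Among the 40 members 0 passed the adjusted threshold, the adjusted p being 1 for each. With 1 probe set per gene, 124 of 10600 genes (1.17%) had an unadjusted p under 0.05, 74 lower in NT3 (0.698%) and 50 higher (0.472%). Of the 40 members this held for 1 (2.5%), Troap, on the lower side. The groups did not overlap in 608 genes (5.74%), 353 lower (3.33%) and 255 higher (2.41%), and among the members in Troap alone. In the fit blocked on replicate number the count over genes was 215 (2.03%), and the member was again Troap. Without control replicate 2 it was 285 (2.69%), and the members were Troap and Ccne1. In each fit the share of genes was below the threshold of 0.05, the average share if no gene differed. The tests may therefore be conservative, which limits what a lack of calls can show. The reason was not tested.

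Of the 40 members, 26 had a positive and 14 a negative log2 fold change, with a median of 0.046 and a median standard error of 0.13. Over all 10600 genes 5026 were positive and 5574 negative, with a median of -0.0075 and a median standard error of 0.16. The replication members had a median of 0.064, 10 of 12 positive, and the mitosis members one of 0.021, 16 of 28 positive. The median of the members was 0.035 without control replicate 2, with 21 positive (52.5%, the same share as over all genes). It was -0.0043 without control replicate 1 and -0.027 without NT3 replicate 3, so the side of 0 on which it lay rested on single arrays. In the same order the median over all genes was 0.0085, -0.0233 and -0.00695. The intervals lay within 1.5-fold for 10 of 12 replication and 26 of 28 mitosis members, and for 72.3% of all genes. The members were also brighter than most genes, with a median signal of 665.6 against 285.8, and their median residual SD of 0.14 was near the 0.15 of 2869 genes with like signals.

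**Figure D2:**
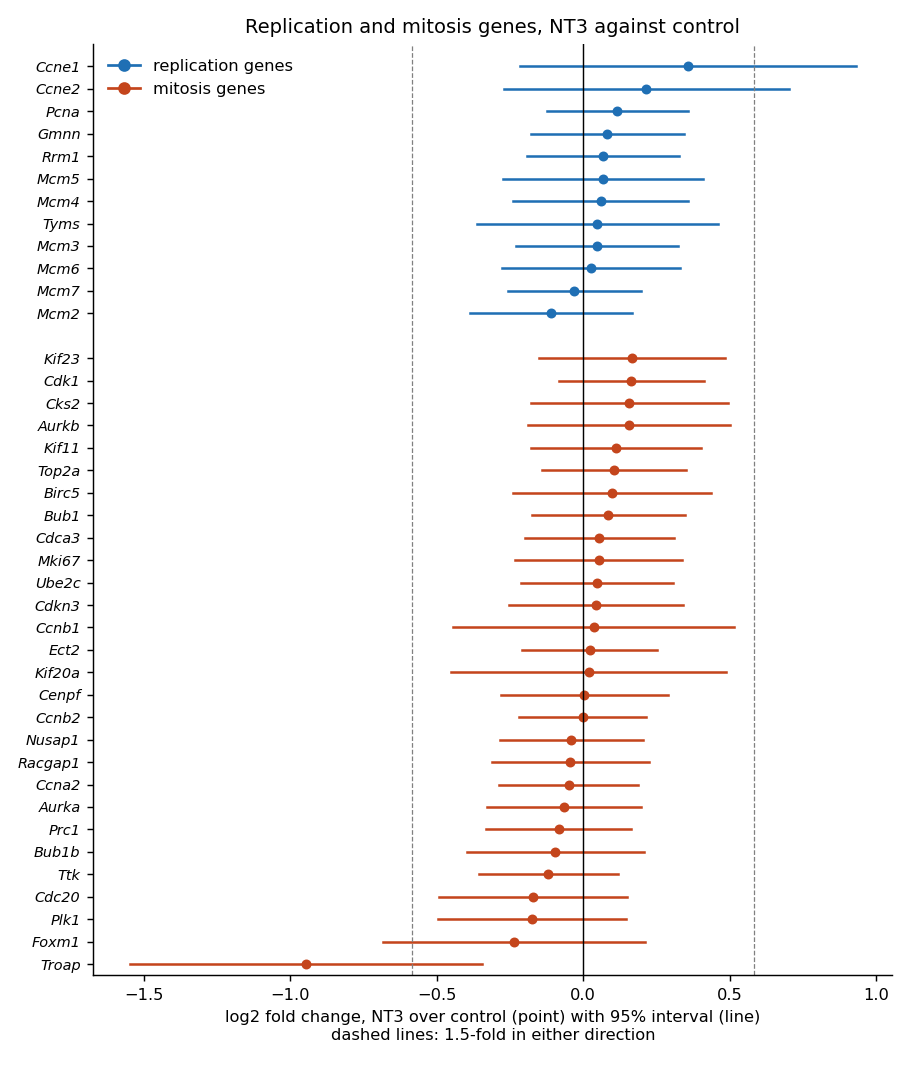
Log2 fold change of each of the 40 measured members, NT3 over control (points), with the 95% interval from limma (lines), for replication genes (blue) and mitosis genes (red). Troap lies at -0.95 with an interval that leaves out 0, and the intervals of the other 39 members include 0.

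The MCM genes encode the 6 subunits of the replicative helicase, which is loaded at origins before S phase and unwinds DNA during it. Mcm2 had signals of 495, 559 and 608 in control and 520.0, 551 and 467 in NT3, each in the order of replicates 1 to 3, as below. Mcm5 had 384, 426 and 292 in control and 382, 376 and 383 in NT3. In both genes the NT3 values lay among the control values or just beyond them, and the groups overlapped. Mcm6 had 894, 1105 and 836 in control and 958.5, 858 and 1061 in NT3, again overlapping. Mcm7 had 1326, 1489 and 1292 in control and 1349, 1265 and 1408 in NT3. The groups overlapped there too. Mcm3 had 328, 391 and 376 in control and 363, 404 and 364 in NT3. Mcm4 had 355, 295 and 387 in control and 371, 357 and 346 in NT3. In neither did the groups come apart. The log2 fold changes of the 6 subunits ran from -0.11 ± 0.12 (SE) for Mcm2 to 0.069 ± 0.15 for Mcm5, 4 positive and 2 negative. All 6 intervals lay within 1.5-fold, that of Mcm7 from 0.837 to 1.15-fold.

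Pcna encodes the sliding clamp that holds polymerases on DNA, and Rrm1 and Tyms encode enzymes that supply deoxynucleotides. Pcna had signals of 3502, 3603 and 4243 in control and 3811, 4239.9 and 4229 in NT3, so that control replicate 3 was level with the upper NT3 arrays. Its log2 fold change was 0.12 ± 0.11, with an interval from 0.918 to 1.28-fold. Rrm1 had 0.069 ± 0.11 and Tyms 0.049 ± 0.18.

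Cyclin E, the product of Ccne1 and Ccne2, drives entry into S phase with CDK2, and geminin, the product of Gmnn, keeps origins from being licensed again. Ccne1 had signals of 72.8, 129.9 and 74.0 in control and 130.5, 98.4 and 115 in NT3. Control replicate 2 was nearly as high as the highest NT3 array, and the other controls were below all NT3 arrays. The log2 fold change was 0.36 ± 0.25, with an unadjusted limma p of 0.191. Without control replicate 2 it was 0.63, with an unadjusted p of 0.00749 and an adjusted p of 0.999. Ccne2 had 255, 161 and 299 in control and 269, 255 and 281 in NT3 on the probe set used here, where control replicate 2 was low. Its other probe set, at 37.6, 70.5 and 41.7 in control, was high on that array. The log2 fold changes were 0.22 and 0.20, and leaving out control replicate 2 moved them to -0.043 and 0.48, apart in sign. Gmnn had 675 to 791 in control and 713 to 857 in NT3, at 0.082 ± 0.12.

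CDK1, with cyclins A and B, is the kinase that starts mitosis. Cdk1 had signals of 767, 809 and 933 in control and 888, 939 and 978 in NT3. NT3 replicate 1 lay below control replicate 3, so the groups overlapped, and Cdk1 had the lowest unadjusted p after Troap, 0.167, at 0.16 ± 0.11. Ccna2, the cyclin A gene, had 699, 632 and 733 in control and 678, 636 and 680.1 in NT3, at -0.048 ± 0.10. It had the smallest spread between arrays of all members, a residual SD of 0.087. Ccnb2 had 3748 to 3859 in control and 3562 to 4175 in NT3, at -0.0014 ± 0.095, with an interval from 0.860 to 1.16-fold.

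Ccnb1, the main cyclin B gene, differed far more between arrays of a group than between groups. Its signals were 2559.9, 1649.9 and 2789 in control and 2215, 1957 and 2929.6 in NT3. The arrays numbered 2 were lowest and those numbered 3 highest in both groups. The log2 fold change was 0.036 ± 0.21, which became -0.20 when control replicate 2 was left out. Kif20a, a kinesin of the central spindle, showed the same pattern, its signals being 1282, 916.5 and 1293 in control and 1219, 867 and 1497 in NT3. Of the oocyte genes, the growth factor gene Gdf9 had 1824, 1150.2 and 1618 in control and 1490.2, 926 and 1687 in NT3. Gdf9 was also lowest in each group on the array numbered 2. So were Bmp15, at 53.4 in control and 127.6 in NT3, and the zona pellucida gene Zp3, at 4212 and 3544. The remaining measured oocyte genes were lowest there only in control or only in NT3. Zp1 and Zp2 were lowest of the NT3 arrays on NT3 replicate 2, at 161 and 4265. They were highest of the controls on control replicate 2, at 312 and 4981. Sohlh1 was lowest of the controls on control replicate 2, at 386, and highest of the NT3 arrays on NT3 replicate 2, at 471. The 6 measured oocyte markers had median deviations from their gene means of 0.18, -0.10 and 0.083 in control and 0.036, -0.28 and 0.19 in NT3. Their part in the spread of Ccnb1 and Kif20a was not tested.

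Cks2 encodes a small subunit of CDK1 complexes, Cdkn3 a phosphatase of CDKs, and Foxm1 a transcription factor of mitotic genes. Cks2 had signals of 1360.0, 1410.1 and 1976 in control and 1599.9, 1805 and 1822 in NT3. Control replicate 3 was the highest of the 6 arrays and the other controls the lowest, and the log2 fold change was 0.16 ± 0.15. Without control replicate 3 it was 0.33, with an unadjusted p of 0.0217 and an adjusted p of 0.989. Foxm1 had 189.8, 175 and 175 in control and 174, 113 and 181 in NT3, NT3 replicate 2 alone standing low. Its log2 fold change was -0.23 ± 0.20, and -0.018 without NT3 replicate 2. Cdkn3 had 0.045 ± 0.13.

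The kinases PLK1, Aurora A and Aurora B build and correct the spindle, survivin (Birc5) holds Aurora B at the centromere, and BUB1, BUBR1 (Bub1b) and TTK run the spindle checkpoint. Plk1 had signals of 392, 418 and 368 in control and 356, 294 and 402 in NT3, at -0.17 ± 0.14. Aurkb had 187, 168.0 and 221 in control and 194, 228 and 218 in NT3, at 0.16 ± 0.15. In both, the groups overlapped. Birc5 had 212, 198 and 236 in control and 236, 199 and 259 in NT3, at 0.099 ± 0.15. Ttk had 1535, 1775 and 1741 in control and 1595, 1421 and 1636 in NT3, at -0.12 ± 0.10. Aurka, Bub1 and Bub1b had -0.065, 0.086 and -0.095. All 7 measured genes of this group had intervals within 1.5-fold, 3 with a positive and 4 with a negative log2 fold change.

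CDC20 and the ubiquitin-conjugating enzyme UBE2C act with the anaphase-promoting complex, which ends mitosis by marking cyclin B for destruction. Cdc20 had signals of 376, 507 and 420.2 in control and 404, 403 and 345 in NT3. Control replicate 2 was high and NT3 replicate 3 low, and the log2 fold change was -0.17 ± 0.14, or -0.054 without control replicate 2. Its other 2 tested probe sets had -0.082 and 0.56. Ube2c and Cdca3 had 0.048 ± 0.11 and 0.055 ± 0.11.

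Troap encodes trophinin-associated protein, which binds microtubules of the mitotic spindle. Its signals were 84.2, 49.4 and 56.7 in control and 32.1, 35.2 and 29.2 in NT3. Every NT3 array lay below every control array, and control replicate 1 was well above the other controls. Control averaged 63.4 ± 18.4 and NT3 32.2 ± 3.00 (SD, n = 3). The log2 fold change was -0.95 ± 0.27, at an unadjusted limma p of 0.0062 and an adjusted p of 1. In the fit blocked on replicate number the unadjusted p was 0.00838, and with single arrays left out the log2 fold change ran from -1.11 to -0.72. All 3 NT3 signals were below the filter's signal of 41.3, which applies to the mean over all arrays, so Troap was tested only because its control signals were higher. Its fold change is given as a description of a dim probe set. No other probe set carried Troap as its only symbol.

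The other spindle genes did not share that size. Kif11, a motor that pushes spindle poles apart, had 0.11 ± 0.13, the microtubule binder Nusap1 -0.041 ± 0.11 and the kinetochore gene Cenpf 0.0044 ± 0.13. Among the genes of the central spindle and cytokinesis, Kif23 had signals of 885, 710.0 and 887 in control and 957, 789 and 1047 in NT3. It was lowest in each group on the array numbered 2, and had a log2 fold change of 0.17 ± 0.14, or 0.061 without control replicate 2. Prc1, Racgap1, Ect2 and Kif20a had -0.083, -0.043, 0.023 and 0.019.

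Mki67 coats mitotic chromosomes and is the usual marker of cycling cells, and Top2a encodes the topoisomerase that untangles sister chromatids. Mki67 had signals of 621, 811 and 635 in control and 681, 735 and 713 in NT3. Control replicate 2 was the highest and the other controls the lowest of the 6, and the log2 fold change was 0.053 ± 0.13, or 0.18 without that array. Top2a had 585, 678 and 637 in control and 641, 674 and 728 in NT3, at 0.11 ± 0.11 with an interval from 0.907 to 1.28-fold. The groups overlapped in both genes.

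**Figure D3:**
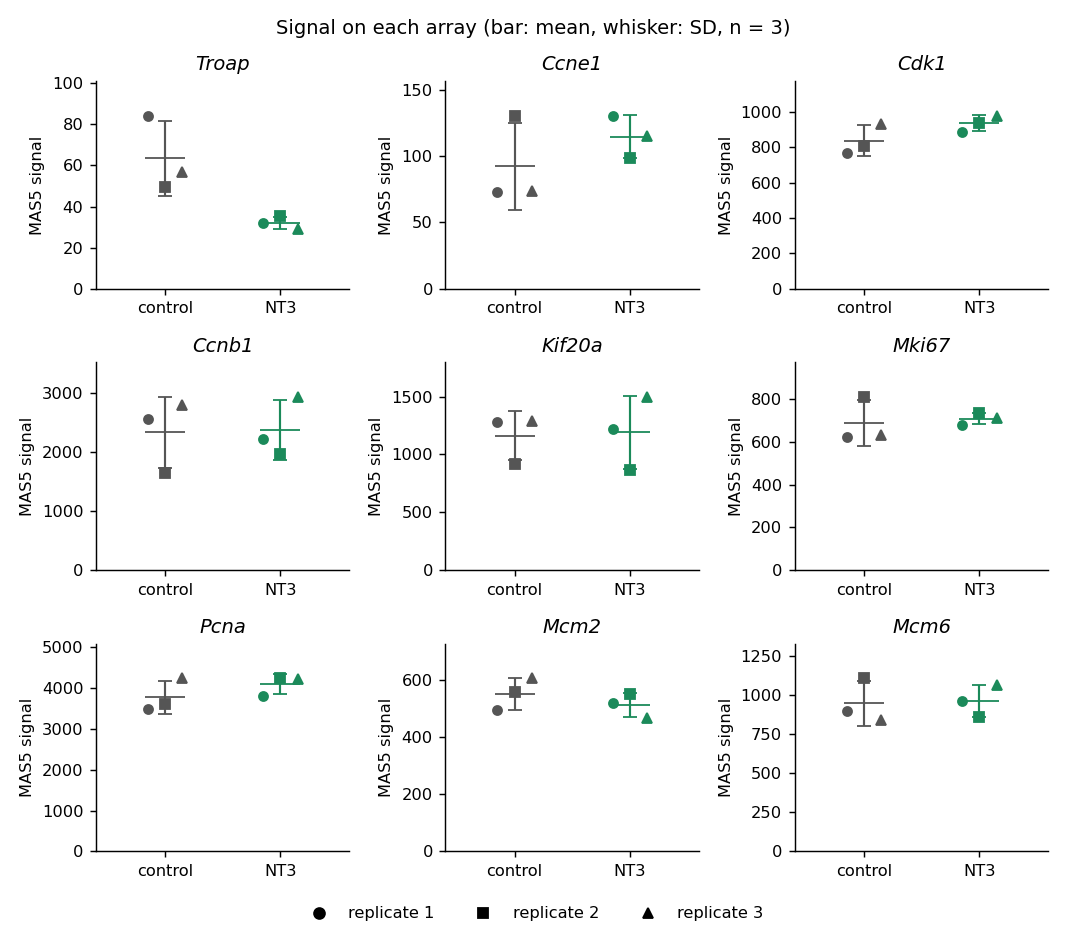
MAS5 signal of 9 members on each array, by group (marker shapes: replicate numbers; horizontal bar: mean; whisker: SD, n = 3; axes start at 0). The groups are apart for Troap, at 49.4 to 84.2 against 29.2 to 35.2, and overlap for the other 8, with Ccnb1 and Kif20a lowest on the replicate 2 arrays of both groups.

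The members were most often highest on the arrays numbered 3. An array of that number was the highest of the 6 for 25 of the 40 members. NT3 replicate 3 alone was highest for 17 (42.5%), against 14.4% of all genes, and for 15 of the 28 mitosis members. Control replicate 3 was highest for 8 (20%), against 11.3% of all genes. The replication members had median deviations of -0.094, 0.077 and 0.023 in control and 0.0066, 0.031 and 0.11 in NT3, again by replicate number. The mitosis members had -0.017, -0.046 and 0.076 in control and -0.032, -0.090 and 0.14 in NT3. The mitosis members were thus lowest on the arrays numbered 2 and highest on those numbered 3 in both groups, while the replication members were low on control replicate 1. Other mitosis genes had -0.0011, -0.015 and 0.035 in control and 0.018, -0.038 and 0.079 in NT3, with the same arrays lowest and highest. The median of the oocyte markers, given above with Ccnb1, was lowest on the arrays numbered 2 as well. The 3 tested steroidogenic markers had medians of 0.10, -0.16 and 0.27 in control and 0.17, -0.44 and 0.22 in NT3, lowest on 2 and highest on 3 in both groups. The 8 surface and oviduct epithelium markers had -0.27, 0.12 and -0.13 in control and -0.017, 0.37 and -0.20 in NT3, highest on 2 in both. Granulosa markers had -0.044, 0.017 and 0.0042 in control and -0.067, -0.13 and 0.069 in NT3. Smooth muscle and pericyte markers had -0.094, 0.37 and -0.34 in control and 0.36, 0.13 and -0.41 in NT3, lowest on 3 in both. Of all marker lists only the steroidogenic one was lowest on 2 and highest on 3 in both groups. The part of any of these in the pattern was not tested.

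**Figure D4:**
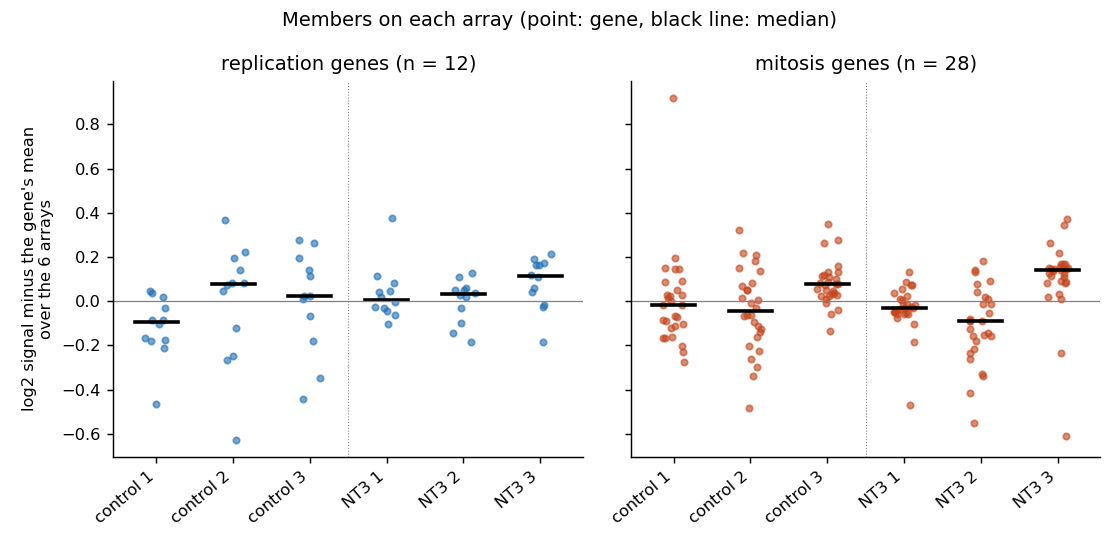
Log2 signal of each measured member minus its mean over the 6 arrays, by array, for 12 replication and 28 mitosis genes (points: genes; black lines: medians). The mitosis medians are highest on control replicate 3 (0.076) and NT3 replicate 3 (0.14), and the control and NT3 ranges overlap in both panels.

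Probe sets of the same member disagreed on control replicate 2, whose 3′ to 5′ ratios were high. For Ttk the probe set used here had 1775 on that array, 1.11 times the median of the other arrays, while its other probe set had 72.4, or 0.209 times that median. For Kif23 the probe set used had 0.800 times and the other, at 23.9, 0.172 times. The second probe sets of Top2a, Nusap1 and Kif11 lay at 0.617, 0.646 and 0.564 times, and the probe sets used at 1.06, 0.999 and 0.845 times. For Ccne2 and Foxm1 the order was the reverse, the probe sets used lying at 0.598 and 1.00 times and the others at 1.37 and 1.46 times. For Racgap1 the probe set used had 795, above every other array, and the other lay at 0.843 times, and for Cdc20 the one used lay at 1.26 times and the other tested ones at 1.16 and 0.631 times. Both probe sets of Ccnb1 were low there, at 0.638 and 0.644 times. Of 10 members with more than 1 tested probe set, 5 had log2 fold changes of differing sign, among them Ttk at -0.12 and 0.63. Whether RNA quality on that array accounts for these values was not tested.

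**Figure D5:**
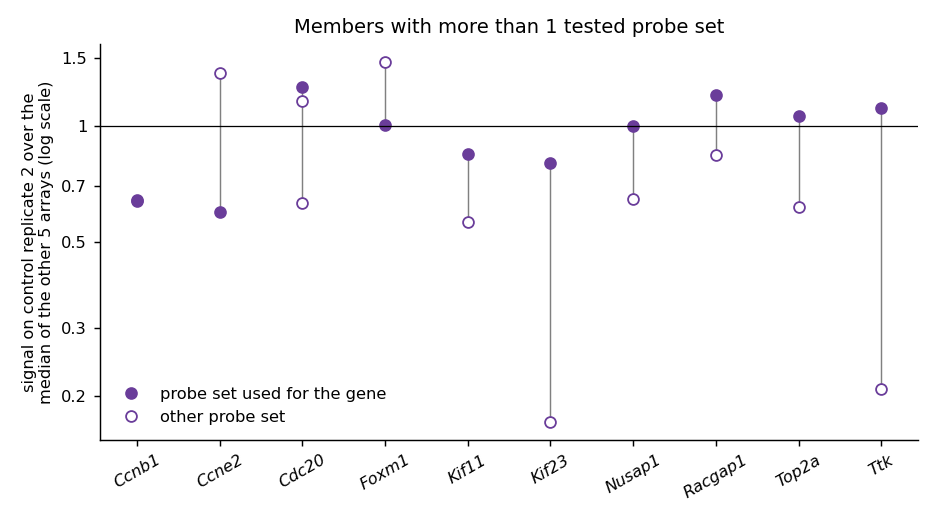
Signal on control replicate 2 over the median of the other 5 arrays (log scale) for every tested probe set of the 10 members that have more than 1, with the probe set used for the gene filled and the others open. The open points of Ttk and Kif23 lie at 0.209 and 0.172, and the 2 points of Ccnb1 lie nearly on each other.

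Genes of the same processes outside the membership were also measured. Of 50 other replication genes (origin recognition, GINS, polymerases, clamp loader, nucleotide supply), 43 were tested, 20 positive and 23 negative, with a median log2 fold change of -0.014. Of 75 other mitosis genes (kinetochore, condensin, kinesins, anaphase-promoting complex), 63 were tested, 37 positive and 26 negative, with a median of 0.020. By limma 0 of these 106 genes had an adjusted p and 0 an unadjusted p under 0.05, against 1.17% of all genes for the latter; in the fit blocked on replicate number the condensin gene Smc4 (0.41) had an unadjusted p of 0.0289. The groups did not overlap in 5 of them (Prim2, Cdc26, Rfc3, Asf1b and Incenp), a share near the 5.74% of all genes. A difference between these lists and the members was not tested. The largest values, 0.88 for Tipin and 0.86 for Cenpa, came from control replicate 2, where the signals were 18.1 and 11.6, against 55.6 to 88.1 for both genes on all other arrays. Without that array they were 0.23 and 0.062.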

How the data were processed

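RNA of 6 whole-ovary samples was measured on 1-colour Affymetrix arrays. The authors deposited linear signal intensities, 1 for each probe set on each array, made with MAS5 per the submitters' processing notes, in a version not given in the sources used here. After 57 control probe sets were removed, signals were taken to log2 with a floor of 0.1. Probe sets with a mean below the 40th percentile (a signal of 41.3) were dropped, leaving 18625. Both groups were then compared in limma 3.58.1 under R 4.3.3, using lmFit and a trended eBayes (variance by intensity), 2-sided, with Benjamini-Hochberg adjustment over all probe sets. Each gene was represented by its brightest probe set over the 6 arrays, which gave 10600 tested genes. A symbol came from the array annotation, where 20826 probe sets had 1, 436 several and 9780 none, and 0 symbols changed against RefSeq.

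The fits were tested on simulated data. The simulated noise was independent between arrays, with no shared deviations at equal replicate numbers and no array of lower RNA quality. No result here rests on it. The number of arrays limits precision, and a scaled signal gives no RNA amount per ovary. The members and lists were chosen with earlier results of these data known. Values on every array are given for the 10 members with the lowest p, the MCM genes and 10 leading cell cycle genes, and in part for others. Stretches of promoter were chosen by lowest p among members with each motif.

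The groups share replicate numbers in the titles. Deviations from the group means correlated at 0.230, 0.247 and 0.222 for equal numbers over all probe sets, against at most 0.0286 for others. Because deviations cancel within a group, positive values at equal numbers lower the others, so those are no separate evidence of pairs. Over the 40 members the values were 0.220, 0.175 and 0.200, and 0.233 at most for others, so the members alone did not single out equal numbers. No label says that equal numbers are pairs. The alternatives were the replicate block, quantile normalization, median centring, a log offset of 16, dropping the filter or raising it to the 60th percentile, array weights, eBayes without the trend, the mean of a gene's probe sets and each array left out. The block without control replicate 2 was added after the data were seen.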

Additional observations from a re-analysis of the deposited data

How the results depend on the processing

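Under all 16 alternatives 0 members had an adjusted limma p under 0.05, and the lowest adjusted p of any of the 22 genes followed through them was 0.519, for Troap. Over all probe sets the count stayed 0 except for 4 with the replicate block and without control replicate 2, which rests on 2 pairs. Members with an unadjusted limma p under 0.05 numbered 0 of 38 with the filter at the 60th percentile, which removes Troap, against 0.897% of all genes. With array weights they numbered 2 of 40, against 3% of all genes. With the block without control replicate 2 they numbered 3 (Troap, Ccne1 and Mcm6), against 4.36% of all genes. With single arrays left out they numbered 1 to 2, against 0.736% to 2.69% of all genes. The replicate block alone again gave 1 member, Troap, and changed no adjusted call, while genes with an unadjusted p under 0.05 went from 124 to 215. The median of other replication genes ran from -0.069 (without NT3 replicate 3) to 0.020 with single arrays left out. The replication median stayed between 0.015 and 0.10, and the mitosis median between -0.068 and 0.053, so the latter changed sign. Each alternative lay within 1 SD of the per-array list medians (0.073 and 0.096) of the reported value. Those SDs exceed the reported medians of 0.064 and 0.021, so staying within them could not show that a sign held.

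Of the 22 genes 13 kept their sign throughout. The sign turned with array weights for Mcm4 (-0.0094), Mcm7 (0.015) and Ccnb1 (-0.17), with the block without control replicate 2 for Mcm4 (-0.048), Mcm7 (0.074) and Ccnb1 (-0.069), and with the mean of all probe sets for Cdc20 (0.10) and Ttk (0.26), whose probe sets differ in sign. With single arrays left out the ranges crossing 0 were -0.027 to 0.10 for Mcm3, -0.050 to 0.15 for Mcm4, -0.088 to 0.18 for Mcm5, -0.057 to 0.14 for Mcm6, -0.070 to 0.033 for Mcm7, -0.016 to 0.18 for Mki67 and -0.20 to 0.18 for Ccnb1. The cause was not tested. Signals near the filter, as for Troap in NT3, limit what depth of signal can show.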
